A study of Mus musculus domesticus with 18 samples.

Results

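Livers of 3 wild house mice, labelled male and trapped at location A at high altitude, were compared with livers of 6 mice from locations B and C at the same altitude, out of 18 mice in the series. The members are the mice whose sample title gives that location, and the comparison itself was picked with earlier results of these data known. All 18 animals were labelled as Mus musculus domesticus males, untreated as far as the labels say, with no age given. The high altitude mice came from La Paz, Bolivia, at 3600 m and the low altitude mice from Lima, Peru, at 100 m, with 3 locations at each altitude and 3 mice at each location. High A held mice numbered 1, 2 and 4; high B and high C each held mice 1, 2 and 3. The low altitude locations also carry the letters A, B and C but are different places, and they are written here as low A, low B and low C. The strain label reads C57BL/6J, while the title and source name wild mice, which was followed. Each location is 1 trapping place, so its surroundings, its mouse population and possible kinship among its mice cannot be told apart from the location itself. Nothing in the labels says that mice of 1 location were unrelated, and the p-values measure the spread between these mice only.

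Each mouse gave 1 Affymetrix mouse array, and levels are log2 values, on which a difference of 1 is a 2-fold change. Levels are comparable between mice within a probe set, the group of short probes that reads 1 transcript, and not between probe sets. Of 45101 probe sets, 34945 carried a single gene name and were tested, covering 18193 genes. Precision is limited by how few arrays there are, and the standard error of A minus the mean of B and C had a median of 0.127. Array medians lay between 5.24 and 5.36. The correlation between arrays averaged 0.986 within high A, 0.985 within each of high B and high C, and 0.983 between high A and the other 2 high locations. Between high B and high C it averaged 0.982, so by this measure A was no further from them than they were from each other. Hepatocyte transcripts were intense on all 18 arrays, with the mean level of 6 defining hepatocyte genes, among them Alb, Ttr and Apoa1, between 13.51 and 13.91.

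The liver holds a resident population of lymphocytes and macrophages beside its hepatocytes. T cells, natural killer (NK) T cells and NK cells patrol the sinusoids, the liver's capillaries, and are drawn there by chemokines, small secreted proteins read by receptors on the cell surface. Kupffer cells, the liver's macrophages, line the same vessels, take up particles from portal blood and present antigen on MHC molecules. In RNA from whole liver, more cells of a type and more RNA per cell cannot be told apart.

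Genes of lymphocytes led the difference between location A and the other high altitude locations. Of 34945 probe sets, 23 were higher in A (0.0658%) and 3 were lower (0.00858%) at an adjusted p under 0.05 with limma. The 26 probe sets read 25 genes, 22 of them higher, and their log2 differences measured from 0.65 to 1.93 in size. For 21 of the 23 higher and 1 of the 3 lower probe sets, the 3 mice of A lay entirely outside the 6 mice of B and C, as against 2.01% of all tested probe sets with A above and 1.35% with A below. The calls were selected on these same arrays, so this separation describes them and is no added support. At an unadjusted p under 0.05, 2696 probe sets differed. Without A mouse 1 there were 10 calls, 8 of them among the 26, and without A mouse 4 or C mouse 2 there were 45 and 48. Cxcr6, Gpr18, Ptpn22, Ccl5 and Nkg7 had been picked as markers of this location from the same data, so their presence among the calls is a description and no independent support.

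Cxcr6, the receptor for the chemokine Cxcl16 and a mark of T and NK T cells that stay in the liver, had levels of 6.18, 5.35 and 6.07 in A mice 1, 2 and 4. In B mice 1, 2 and 3 it read 4.55, 4.26 and 4.03, and in C mice 1, 2 and 3 it read 4.36, 4.53 and 4.16. All 3 mice of A were above all 6 others, and B and C overlapped each other. The difference was 1.55 ± 0.16 on the log2 scale (SE), a 2.93-fold higher level, with an adjusted p of 0.000845. A second, dimmer probe set of Cxcr6 differed by 0.69 ± 0.16 (SE, adjusted p = 0.141), and there B mouse 1 overlapped the mice of A.

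Gpr18, a G protein-coupled receptor found mainly on lymphocytes, had levels of 5.69, 6.17 and 6.23 in A. Its levels were 4.91, 4.74 and 4.64 in B and 4.70, 4.76 and 4.67 in C. The 6 mice of B and C lay between 4.64 and 4.91, and A stood 1.30 ± 0.14 above them (SE, adjusted p = 0.000845). Its differences from B, 1.27, and from C, 1.33, were nearly the same.

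Ptpn22 encodes the lymphoid tyrosine phosphatase, which dampens signalling from T and B cell receptors. It read 6.78, 5.89 and 5.92 in A, 5.01, 4.91 and 4.84 in B, and 4.49, 4.24 and 4.20 in C. The 3 locations did not overlap one another, with A the highest and C the lowest, although B and C did not differ at an adjusted p under 0.05 (adjusted p = 0.49). A was higher by 1.58 ± 0.20 (SE, adjusted p = 0.00492).

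Ccl5 (RANTES), a chemokine released by activated T and NK cells, showed the largest difference of the 26 probe sets. Its levels were 9.62, 9.65 and 10.12 in A, 8.54, 8.23 and 7.66 in B, and 7.84, 7.84 and 7.07 in C. A was higher by 1.93 ± 0.27 (SE, adjusted p = 0.0063), which is 3.82-fold. All 3 mice of A lay at least 1 log2 unit above the highest mouse of B or C.

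Nkg7, a membrane protein of the cytotoxic granules of NK and CD8 T cells, read 7.36, 6.84 and 6.92 in A, 6.24, 5.89 and 5.83 in B, and 5.56, 6.12 and 5.85 in C. A was higher by 1.12 ± 0.19 (SE, adjusted p = 0.0352) with no overlap. Of the 5 markers it was the least settled, and 11 of 21 alternative analyses left it above an adjusted p of 0.05 with the same direction. Cxcr6 and Gpr18 passed in each of the 20 alternatives in which they were tested.

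The chemokine receptor gene Cxcr3, whose ligands Cxcl9 and Cxcl10 are induced by interferon gamma, was at 6.82, 6.62 and 6.71 in A against 5.78 to 5.96 in B and C. It was higher by 0.83 ± 0.11 (SE, adjusted p = 0.00492). Cd7, an immunoglobulin-family receptor of T and NK cells, was at 7.25, 7.13 and 7.18 in A against 6.24 to 6.61, a difference of 0.77 ± 0.10 (SE, adjusted p = 0.00492). Both genes varied little within a location and did not overlap between A and the rest. Gzmk, a granule protease of T cells, was higher by 1.07 ± 0.18 (SE, adjusted p = 0.0352) but did overlap. Its levels were 5.96, 6.38 and 5.67 in A, and B mouse 1 at 5.77 lay among them, while the other 5 mice of B and C lay between 4.68 and 4.84.

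**Figure D1:**
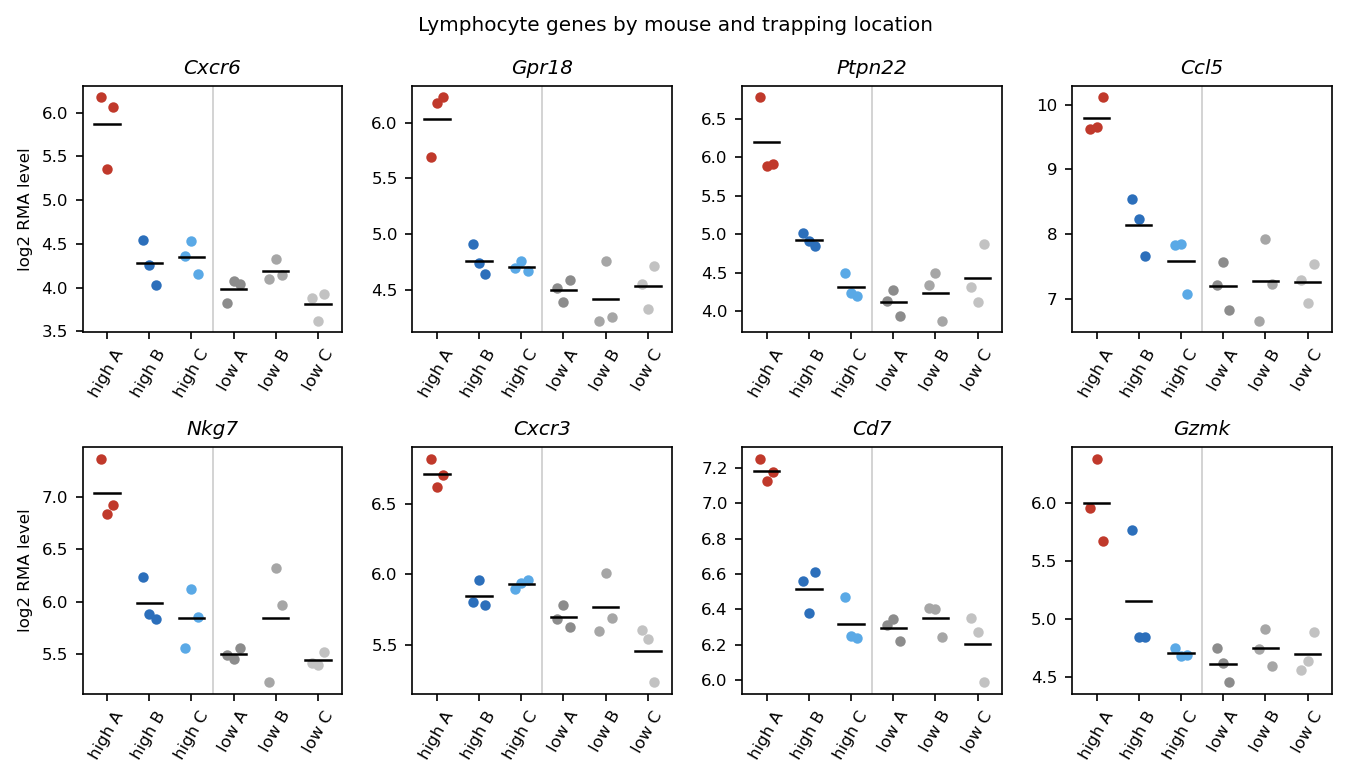
Log2 levels of 8 lymphocyte genes in each of the 18 mice (points) at the 6 trapping locations, with the location mean as a black line and a separate vertical scale for each gene. The 3 mice of high A stand above the 15 other mice for these genes, except for Gzmk, where high B mouse 1 at 5.77 lies among them.

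The 9 low altitude mice lay below all 3 mice of high A for 17 of the 23 higher probe sets, as against 1.73% of all tested probe sets. The 23 were selected for high values in the same 3 arrays of A, so nothing is read from that count. The lowland levels of Cxcr6 ran from 3.62 to 4.33 with a median of 4.04, those of Ccl5 from 6.66 to 7.93 with a median of 7.23, and those of Ptpn22 from 3.87 to 4.88 with a median of 4.28. High A exceeded the mean of the low locations by 1.87 for Cxcr6, 1.55 for Gpr18, 1.94 for Ptpn22, 2.55 for Ccl5 and 1.44 for Nkg7, with adjusted p from 2.83e-05 to 0.00141.

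Beyond lymphocytes, Fcna and Sdc4 had the largest differences among the calls. Fcna encodes ficolin A, a pattern-recognition protein that starts the lectin pathway of complement and is made by macrophages. It read 9.44, 9.32 and 9.18 in A, 6.92, 7.23 and 6.98 in B, and 8.46, 7.78 and 7.44 in C. The 3 mice of A agreed closely and lay above all others, 1.84 ± 0.24 higher than B and C (SE, adjusted p = 0.00492). The difference from B, 2.27, passed on its own (adjusted p = 0.0027), and the difference from C, 1.42, did not (adjusted p = 0.0985).

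Sdc4, the heparan sulphate proteoglycan syndecan 4, was called because of location B. It read 13.12, 13.59 and 13.11 in A and 13.10, 12.58 and 13.01 in C, but 9.95, 10.04 and 10.19 in B. A exceeded B by 3.21 ± 0.28 (SE, adjusted p = 0.000103) and C by 0.38 ± 0.28 (SE, adjusted p close to 1), and the lowest mouse of A at 13.11 all but touched the highest of C at 13.10. A second, dimmer probe set of Sdc4 had the opposite sign, with a difference of -0.50 ± 0.36 (SE, adjusted p = 0.826). Values of single probes are not used here, so a change of sequence under the probes in these wild mice and a change in RNA cannot be told apart.

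The other calls higher in A covered varied functions. Both probe sets of Nudt16, a hydrolase that clears inosine nucleotides, were called, by 1.14 ± 0.16 and 0.88 ± 0.13 (SE). For the first of them the mice of A were at 7.01, 6.74 and 7.03 against 5.63 to 5.96 in B and C. Slc5a1, the sodium-glucose cotransporter SGLT1, was at 6.99, 6.13 and 6.76 in A, 5.96, 5.63 and 5.65 in B, and 4.91, 4.83 and 5.44 in C. It was higher by 1.22 ± 0.17 (SE, adjusted p = 0.0063), and a dimmer second probe set gave 1.26 ± 0.24 (SE, adjusted p = 0.0589). Eif4e3, a cap-binding member of the translation initiation factor 4E family, was higher by 1.39 ± 0.23 (SE, adjusted p = 0.0323), with a spread within A from 7.24 to 8.48.

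Nipa1, a magnesium transporter gene, was higher by 1.19, the endosomal sodium-proton exchanger gene Slc9a9 by 0.91, the DNA primase gene Prim1 by 0.93 and the cathepsin inhibitor gene Cstb by 0.75. Pecr, a peroxisomal enoyl-CoA reductase, was higher by 0.75, with 1.07 against B and 0.44 against C. Against the low locations neither Prim1 nor Pecr was called (limma adjusted p = 0.124 and 0.564). Their low A means were 7.09 and 11.86, and their high A means 7.09 and 11.74. Of the 26 calls, 21 did pass against the low locations in the same direction, in a contrast that shares the arrays of A. Atrnl1 was higher by 0.65, the provisional gene C030034I22Rik by 0.85, and the transcription factor gene Rfx4 by 1.23 with overlap, since C mouse 1 at 5.65 exceeded the lowest mouse of A at 5.59. The brighter probe set of Rfx4 differed by -0.08 (adjusted p = 0.933), the opposite sign. Cnpy2, a protein of the endoplasmic reticulum, was higher by 1.09 in a dim probe set, while its 3 bright probe sets differed by -0.15, 0.11 and 0.09. For A against B and C, the adjusted p of these 9 genes lay between 0.00492 and 0.0458. Several were unsettled: Prim1 and Atrnl1 each missed the threshold in 12 of 21 alternatives, Cstb in 11 of 20 and Rfx4 in 10 of 19, with the direction kept.

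Of the 3 probe sets lower in A, only Csnk1e separated A from both other locations. This gene encodes casein kinase 1 epsilon, which phosphorylates the Period proteins of the circadian clock. It read 6.01, 6.16 and 6.26 in A, against 6.90 to 7.18 in B and 7.02 to 7.36 in C, a difference of -0.95 ± 0.14 (SE, adjusted p = 0.0109). Its other 2 probe sets differed by -0.32 and -0.11 and were not called. The low altitude mice, at 5.90 to 6.66, overlapped A and not B or C, and high A differed from the low locations by -0.05 (adjusted p = 0.965).

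The remaining 2 lower calls came from 1 comparison location each. The provisional gene 9230114K14Rik was at 4.50, 4.13 and 4.19 in A, at 4.53, 5.40 and 4.21 in B, and at 6.90, 6.68 and 7.01 in C. Cryaa, the lens chaperone alpha-A crystallin, was at 5.39, 5.75 and 5.42 in A and at 5.67, 5.40 and 5.67 in C, but at 7.45, 6.94 and 6.86 in B. In both genes A overlapped 1 of the other locations and the lowland mice.

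**Figure D2:**
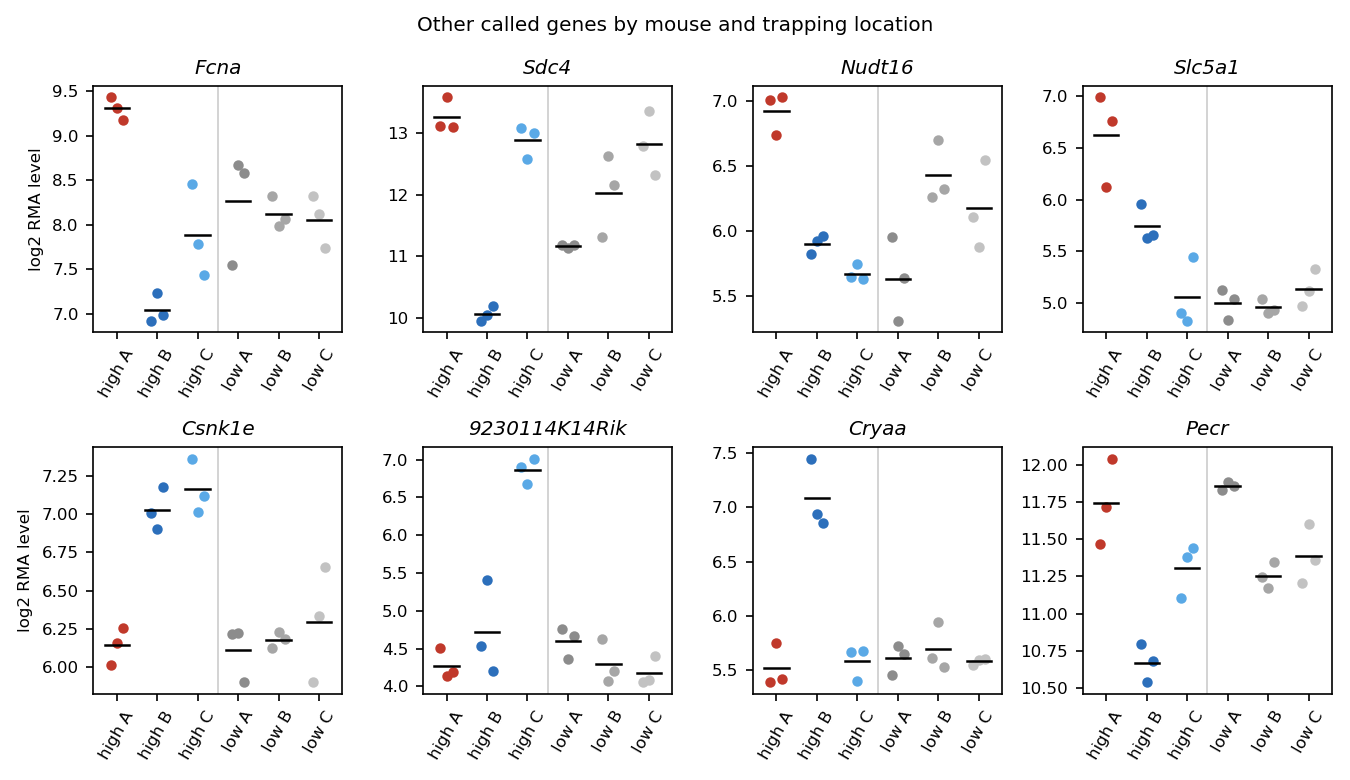
Log2 levels of 8 other genes called between high A and high B and C, in each of the 18 mice (points) at the 6 trapping locations with the location mean as a black line. Fcna, Nudt16 and Slc5a1 are highest in high A, Sdc4 and Cryaa stand apart in high B, 9230114K14Rik in high C, and Csnk1e is lower in high A and at low altitude than in high B and C.

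Considered one location at a time, A differed from B at 66 probe sets, 47 higher (0.134%) and 19 lower (0.0544%), and from C at 21, 15 higher (0.0429%) and 6 lower (0.0172%). These comparisons share the 3 arrays of A. Of the 26 calls above, 21 were also called against B, 13 against C and 10 against both. Those 10 probe sets read Cxcr6, Gpr18, Ptpn22, Cxcr3, Cd7, Ccl5, Nudt16 with both of its probe sets, Slc9a9 and Csnk1e. B and C themselves differed at 32 probe sets, 15 higher in B (0.0429%) and 17 higher in C (0.0486%), and 3 of these, Sdc4, Cryaa and 9230114K14Rik, were among the 26 calls. Treated the same way, B set against A and C gave 75 calls, 30 higher (0.0858%) and 45 lower (0.129%), and C set against A and B gave 11, 6 higher (0.0172%) and 5 lower (0.0143%). The 75 calls of B fell to 11 without B mouse 3.

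**Figure D3:**
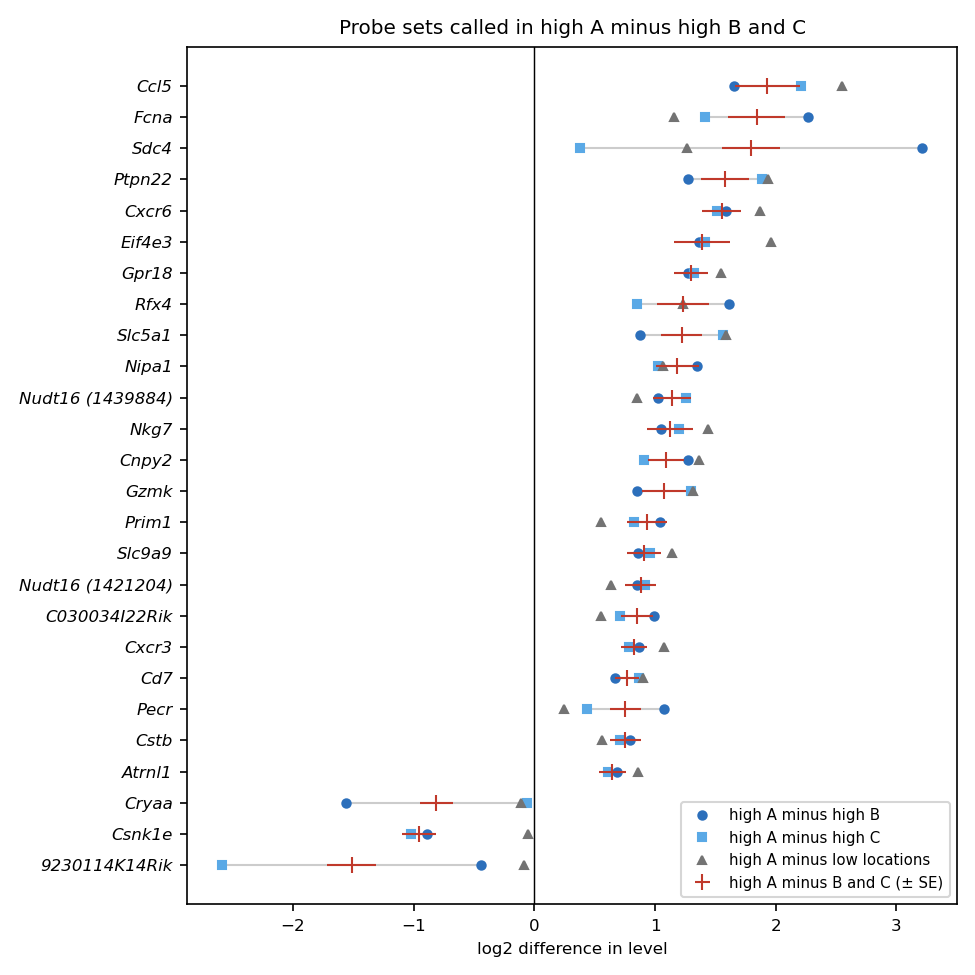
Log2 differences of the 26 called probe sets, with high A minus B and C shown with its SE (red), high A minus high B (dark circles), high A minus high C (light squares) and high A minus the low locations (grey triangles). Most differences from B and from C lie close together, whereas Sdc4 at 3.21 and 0.38, Cryaa at -1.56 and -0.06 and 9230114K14Rik at -0.44 and -2.59 depend on 1 location.

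Some differences larger than those above were called against 1 location only, and the genes named here were chosen after their values were seen. Cyp4f14, a cytochrome P450 that inactivates leukotrienes, was at 11.35, 10.02 and 10.88 in A against 6.21, 7.05 and 8.71 in B, a difference of 3.43 ± 0.47 (SE, adjusted p = 0.0054), while C at 9.50 to 10.41 overlapped A. A probe set of Lipa, the lysosomal acid lipase gene, read 10.84, 10.61 and 10.40 in A, 10.80, 10.92 and 10.68 in B, and 5.75, 6.40 and 6.11 in C. The other 2 Lipa probe sets differed between A and C by 0.15 and -0.18. Proz, a vitamin K-dependent plasma protein gene, was at 5.75, 5.10 and 5.58 in A and at 9.78, 10.38 and 10.02 in C, a difference of -4.59 ± 0.71 (SE, adjusted p = 0.0175), with B at 9.30, 5.68 and 4.84; its brighter probe set differed from C by -1.14 and was not called. Gsn, which encodes the actin-severing protein gelsolin, differed from B by 4.86 ± 0.81 (SE, adjusted p = 0.0282) in 1 of its probe sets, where A mouse 4 at 10.61 stood far above A mice 1 and 2 at 7.17 and 7.44.

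Lymphocyte genes were also read from lists of named genes, taking 1 probe set for each gene. The lists include the called genes and the markers of location A, and Ccl5 counts among both NK and chemokine genes. Their counts are therefore no independent support for the calls. Across all 18193 genes, 4.92% were higher and 2.65% lower in A at an unadjusted p under 0.05, the median difference was -0.02, and 17 genes (0.0934%) were called higher and 3 (0.0165%) lower. Of 44 measured genes of lymphocyte signalling and adhesion, 27 were higher and 0 lower at an unadjusted p under 0.05, 40 had a positive difference, and the median was 0.37. Gpr18 and Ptpn22 passed the adjusted threshold. Itgal, the alpha chain of the integrin LFA-1, was at 8.66, 7.74 and 8.09 in A against 6.91 to 7.63 in B and C, a difference of 0.95 ± 0.20 (SE, adjusted p = 0.0999). Ly9, a SLAM-family receptor, differed by 0.63 ± 0.13 (SE, adjusted p = 0.0855). Neither of these genes overlapped between A and the rest.

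Of 26 measured T cell genes, 9 were higher and 0 lower at an unadjusted p under 0.05, 19 had a positive and 7 a negative difference, and 0 passed the adjusted threshold. The median was 0.12, and 0.05 without A mouse 2. Cd3d, a signalling chain of the T cell receptor, read 7.23, 6.72 and 6.80 in A, 6.17, 5.92 and 5.98 in B, and 5.30, 6.29 and 5.67 in C. It differed by 1.02 ± 0.20 (SE, adjusted p = 0.0589) with no overlap. Cd5, a T cell co-receptor, differed by 0.52 ± 0.10 (SE, adjusted p = 0.0586), Cd2 by 0.34 and Cd3g by 1.19, the last with A mouse 1 at 6.85 and A mice 2 and 4 at 5.27 and 5.30.

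The probe sets of Cd8a, the co-receptor of cytotoxic T cells, disagreed. Of its 5 probe sets, 3 had all mice of A above B and C, with differences of 0.83, 0.76 and 0.45 (adjusted p from 0.0586 to 0.241). The brightest, which stands for the gene in the list, differed by 0.08 and overlapped, as did the fifth. Cd4, the co-receptor of helper T cells, differed by -0.23 (adjusted p = 0.671).

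Of 25 measured NK and cytotoxic effector genes, 10 were higher and 1 lower at an unadjusted p under 0.05, with a median of 0.20. Ccl5, Gzmk and Nkg7 passed the adjusted threshold, and Fasl, the ligand that triggers death of target cells, differed by 0.51 ± 0.12 (SE, adjusted p = 0.13). The defining NK genes were uneven: Gzmb, a granule protease, differed by 1.22 ± 0.38 (SE, adjusted p = 0.338) and Klrk1 by 0.49 ± 0.22 (SE, adjusted p = 0.618), while Prf1, perforin, differed by 0.14 and Ncr1, an NK receptor, by 0.05. Nkg7, picked as a marker of A from these data, is among the 6 measured defining NK genes, so their mean is no independent support. Over these 6 genes, the mean level was 5.89 to 6.23 in A, 5.28 to 5.56 in B and 5.30 to 5.69 in C. At low altitude it was 5.09 to 6.21, so the lowland mice overlapped A. For 7 defining T cell genes it was 5.92 to 6.20 in A against 5.42 to 5.64 in B and C and 5.32 to 5.66 at low altitude, with no overlap.

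Among 43 chemokine and receptor genes, 5 were higher and 1 lower at an unadjusted p under 0.05, and the median of 0.04 was close to that of all genes. Cxcr6, Cxcr3 and Ccl5 were the 3 adjusted calls. The Cxcr3 ligand gene Cxcl9 was at 11.33, 11.21 and 10.47 in A, but B ran from 8.42 to 10.82 and C from 8.72 to 11.47, so that its difference of 1.38 ± 0.78 (SE, adjusted p = 0.739) lay within the spread. Interferon response genes likewise did not separate A. Of 41 measured, 1 was higher at an unadjusted p under 0.05, the median was 0.13 (-0.08 without A mouse 1), and the mean level of the list was 7.70 to 8.54 in A and 7.12 to 8.48 in C.

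For B and plasma cells, 6 of 21 genes were higher at an unadjusted p under 0.05 and the median was 0.27. Pou2af1, a B cell transcriptional coactivator, differed by 0.47 ± 0.10 (SE, adjusted p = 0.0779) and Bank1, a B cell scaffold, by 0.97 ± 0.24 (SE, adjusted p = 0.182). The defining markers Cd79a and Cd79b differed by 0.07 and -0.0013. Jchain, which joins antibody chains in plasma cells, read 9.92, 9.52 and 8.97 in A, and C mouse 1 at 10.03 exceeded all of them.

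Kupffer cell and macrophage genes shifted broadly without an adjusted call. Of 27 measured genes, 26 had a positive difference, 14 were higher at an unadjusted p under 0.05, and the median was 0.53, the largest of the 42 lists. The mean level of the list did not separate A, at 9.59, 8.95 and 9.20 in A mice 1, 2 and 4. C mouse 2 was at 9.28, and low B mice 2 and 3 were at 8.99 and 9.06. Vsig4, a complement receptor of resident macrophages, read 11.09, 10.79 and 11.15 in A, 10.03, 10.56 and 9.75 in B, and 10.35, 10.72 and 10.26 in C. It differed by 0.73 ± 0.16 (SE, adjusted p = 0.119), and the lowest mouse of A at 10.79 stood just above C mouse 2 at 10.72. Csf1r, the receptor for macrophage colony-stimulating factor, differed by 0.68 ± 0.19 (SE, adjusted p = 0.234), also without overlap. Cd163, the haemoglobin scavenger receptor, differed by 2.03 from B and 0.54 from C.

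The mean level of the MHC class II genes was highest in A mouse 1, at 8.91 against 8.25 and 8.22 in A mice 2 and 4. B mice 1 and 2, at 8.26 and 8.29, exceeded A mice 2 and 4. C mouse 2 at 8.23 exceeded A mouse 4, so the list mean did not separate A. Of 11 MHC class II genes, 6 were higher at an unadjusted p under 0.05 with a median of 0.48. H2-Ab1, a class II beta chain, was at 11.85 in A mouse 1 and 10.40 and 10.61 in A mice 2 and 4, against 8.09 to 10.28 in B and C (difference 1.60 ± 0.51, SE, adjusted p = 0.369). Cd74, the class II invariant chain, was at 12.61, 11.78 and 11.37 in A, and B mouse 1 at 11.74 lay within that range. Of 20 MHC class I and immunoproteasome genes, 6 were higher at an unadjusted p under 0.05, led by the nonclassical class I gene H2-M3 with a difference of 0.85 ± 0.16 (SE, adjusted p = 0.0589).

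Leaving out A mouse 1 lowered the macrophage, class II and class I counts more than leaving out A mouse 2 or 4. Without its array, the genes higher at an unadjusted p under 0.05 fell from 14 to 5 of 27 for macrophages, from 6 to 0 of 11 for class II, and from 6 to 2 of 20 for class I. The lymphocyte signalling list went from 27 to 17 of 44 (with 1 lower), T cell genes from 9 to 6 of 26 and NK genes from 10 to 8 of 25, while the share of all genes was 3.22%. The medians moved less, from 0.53 to 0.39 for macrophages, 0.48 to 0.32 for class II and 0.37 to 0.33 for lymphocyte signalling, but from 0.31 to 0.15 for class I. Without A mouse 2 the macrophage and class II counts were 16 and 5, and without A mouse 4 they were 13 and 5. Mouse 1 also had the lowest excess of 3 prime over 5 prime signal at the Actb controls, which rises as RNA breaks down, at 0.84 against 1.36 in both other mice of A. That excess averaged 1.19 ± 0.30 in A (SD, n = 3) and 1.50 ± 0.29 in B and C (SD, n = 6), and A and the rest did not differ beyond the spread (exact two-sided permutation p = 0.214, smallest possible 0.0119). B and C were not alike: B at 1.46 to 2.02 lay above every mouse of A and of C, with C at 1.21 to 1.38. The Gapdh controls gave 0.28 to 0.39 in B, -0.11 to 0.18 in A and 0.07 to 0.18 in C. Whether the excess in B bears on its differences from A was not tested. With the Actb excess as a covariate in the limma fit, 9 of the 26 calls remained. The counts were then 23 of 44 for lymphocyte signalling, 5 of 27 for macrophages and 2 of 11 for class II. In that fit 1885 of 34945 probe sets differed in either direction at an unadjusted p under 0.05, against 2696 without the covariate.

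**Figure D4:**
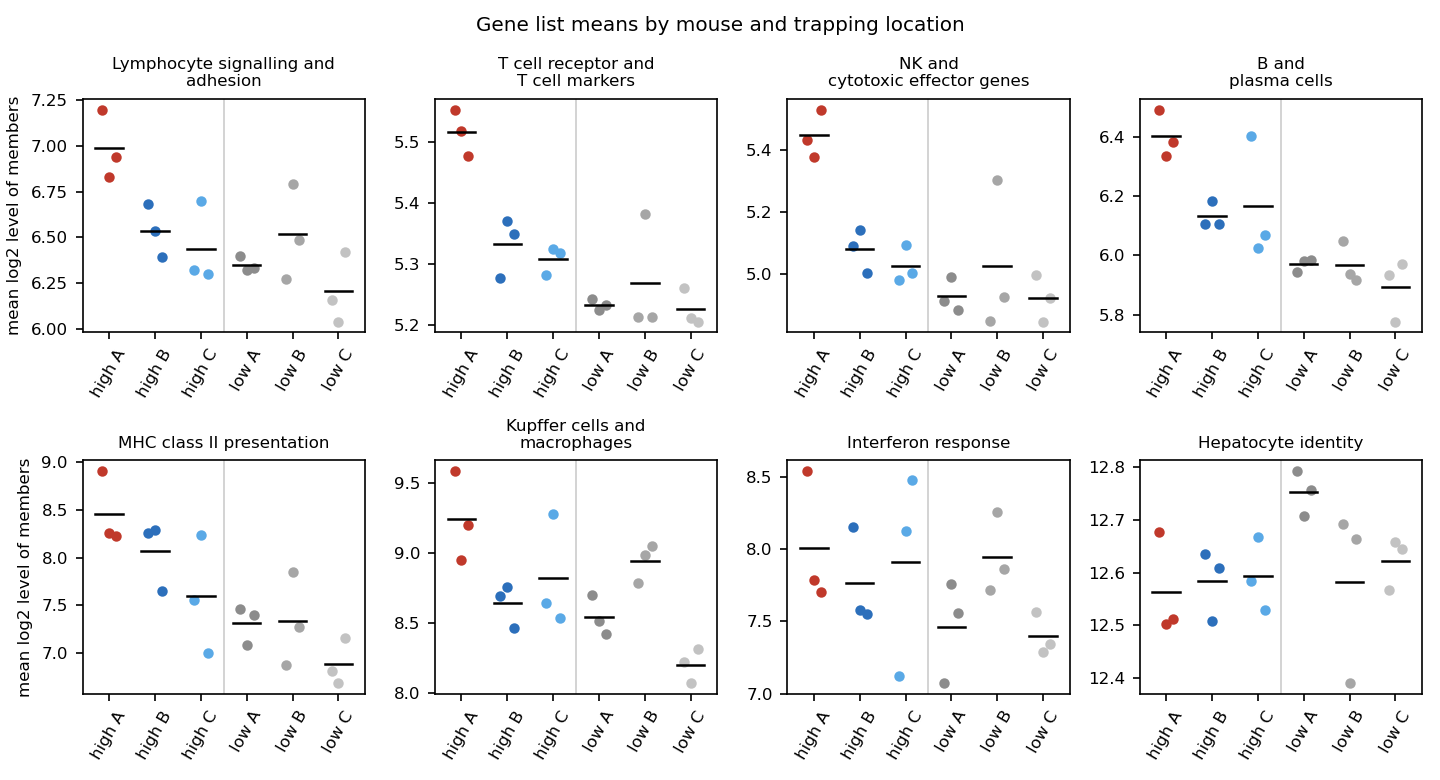
Mean log2 level of the measured members of 8 gene lists in each of the 18 mice (points) at the 6 trapping locations, with the location mean as a black line. High A lies above high B and C for lymphocyte signalling, T cell and NK genes; high A mouse 1 and high C mouse 2 stand out for macrophage genes at 9.59 and 9.28, and hepatocyte identity shows no separation.

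Lysosomal and inflammatory genes moved to a smaller degree. Of 26 lysosomal genes 6, and of 43 inflammatory mediators and receptors 8, were higher and 0 lower at an unadjusted p under 0.05, with medians of 0.16 and 0.10. Tlr2, the receptor for bacterial lipoproteins, was at 7.27, 7.49 and 7.24 in A against 6.13 to 6.99 in B and C (0.83 ± 0.24, SE, adjusted p = 0.261). Tnfaip3, the NF-kappa B feedback inhibitor A20, was at 7.36, 8.07 and 7.36 against 6.32 to 7.24 (0.94 ± 0.25, SE, adjusted p = 0.227). Without A mouse 1 the 2 counts were 1 of 26 (3.85%) and 4 of 43 (9.3%), as against 3.22% of all genes. The lysosomal count was then close to that share. Of 39 complement and coagulation genes, 7 were higher at an unadjusted p under 0.05, and Fcna alone was called. C8g, a chain of the complement membrane attack complex, was at 12.64, 12.67 and 12.67 in A against 10.41 to 11.99 in B and C (1.40 ± 0.46, SE, adjusted p = 0.387).

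Among other resident cells, the neutrophil, endothelial and stellate cell lists had 2 of 15, 1 of 25 and 3 of 31 genes higher at an unadjusted p under 0.05, with medians of 0.02, 0.02 and 0.11 and 0 adjusted calls. The first 2 of these medians turned negative when some single mice were left out. The mean level of the 31 genes of the stellate list did not separate A. High B mouse 1, high C mouse 1, low A mouse 1 and low B mouse 2 all exceeded high A mouse 2. The mean of the 5 defining genes of stellate cells, which store vitamin A and make matrix, did lie apart in A. It was 8.10 to 8.16 in A, 7.71 to 7.96 in B, 7.66 to 7.92 in C and 7.88 to 8.02 at low altitude. Of these 5 genes, only Lrat differed at an unadjusted p under 0.05. All 5 differences were positive, led by Lrat, which esterifies retinol, at 0.92 ± 0.25 (SE, adjusted p = 0.227), followed by the matrix proteoglycan gene Dcn at 0.31, while Des and Pdgfrb differed by 0.06 and 0.08. The sinusoidal endothelial scavenger receptor gene Stab2 differed by 0.72 and Lyve1 of the same cells by -0.81. Of 23 hepatocyte identity genes, 0 were higher and 1, the tyrosine aminotransferase gene Tat, was lower at an unadjusted p under 0.05, with a median of -0.01. The erythroid markers Alas2 and Hba-a1 differed by -0.51 and -0.19.

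Metabolic and stress lists gave no adjusted call in either direction. Cholesterol synthesis had the lowest median of the 42 lists, -0.41, and 18 of its 20 genes had a negative difference, with 1 lower at an unadjusted p under 0.05. That gene was Tm7sf2, a sterol reductase, with a difference of -1.21 ± 0.35 (SE, adjusted p = 0.293). The mean level of the list was 9.49, 8.24 and 10.29 in A, so the mice of A spanned more than the 8.70 to 10.49 of B and C, and the list did not separate them. Without A mouse 2 the median turned to 0.04, and without A mouse 4 it was -0.94. The differences from B and from C were -0.78 and -0.19 at the median. In fatty acid and triglyceride synthesis, Acacb, the mitochondrial acetyl-CoA carboxylase, was at 7.26, 7.32 and 7.77 in A against 8.39 to 9.27 in B and C (-1.26 ± 0.34, SE, adjusted p = 0.227).

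Afmid, kynurenine formamidase of tryptophan breakdown, was at 7.76, 7.84 and 9.15 in A against 9.40 to 10.45 (-1.57 ± 0.35, SE, adjusted p = 0.119). The list of clock genes, which does not include Csnk1e, had 0 of 24 higher and 2 lower at an unadjusted p under 0.05. Its median was -0.21, and without A mouse 1 it had 0 lower with a median of -0.07. Per1 differed by -0.67 ± 0.25 (SE, adjusted p = 0.515). Hypoxia-inducible factor targets, oxidative phosphorylation and iron genes had medians of -0.08, -0.02 and -0.02, each with 0 adjusted calls.

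**Figure D5:**
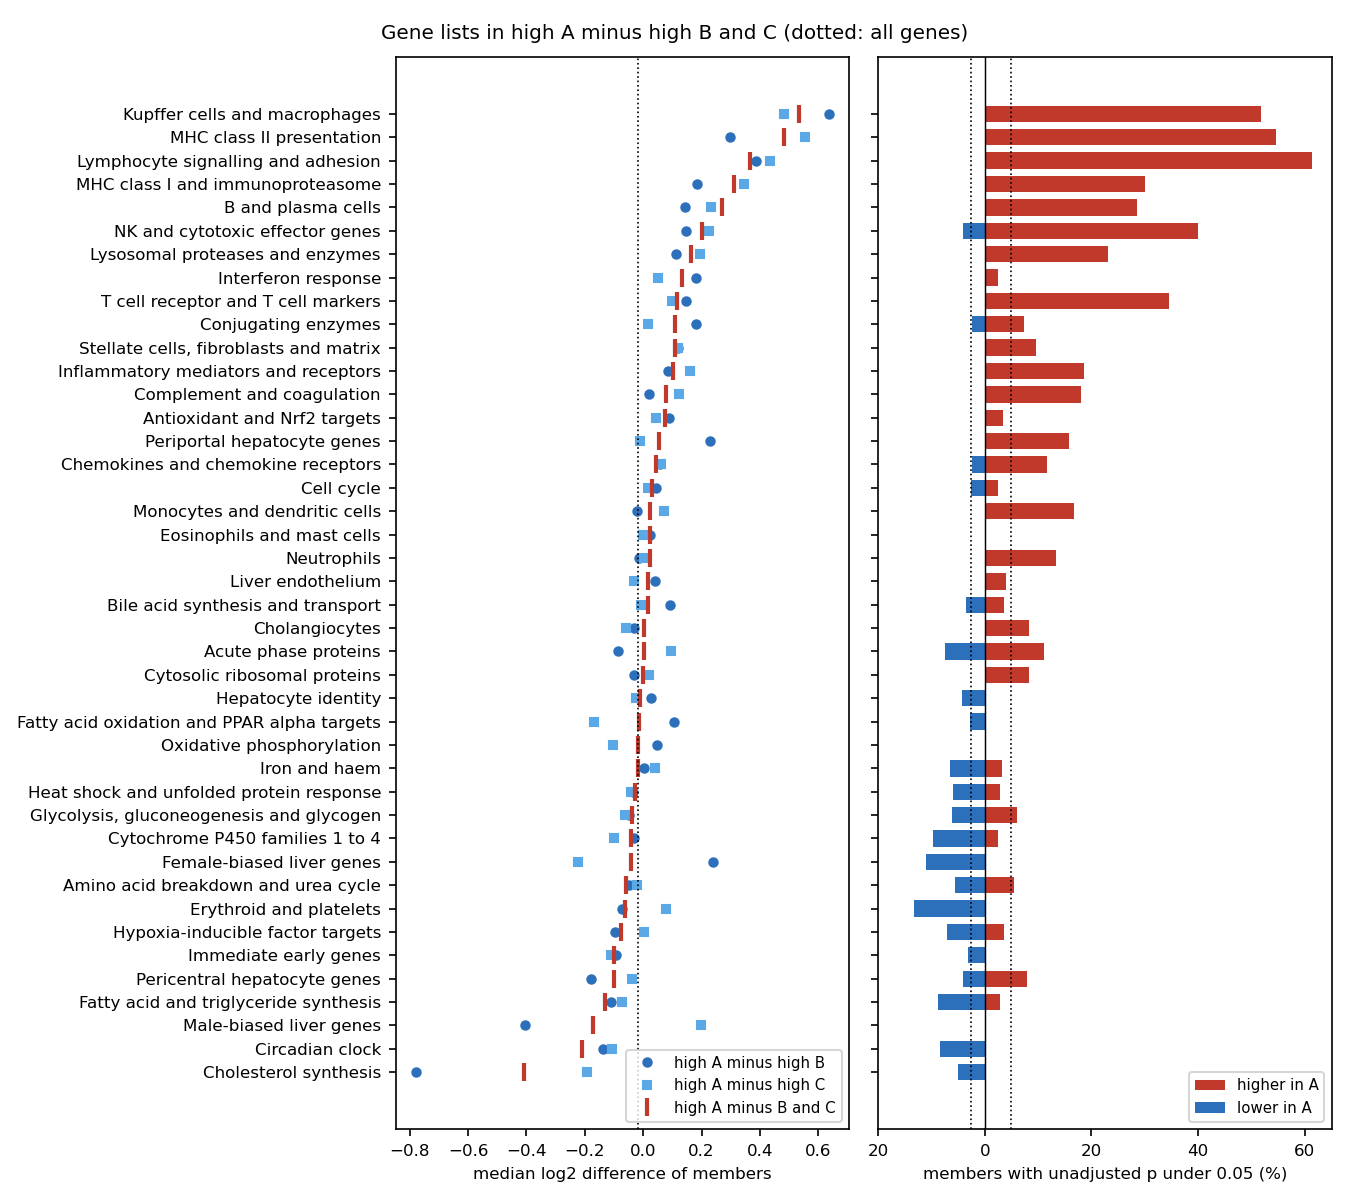
Median log2 difference of the measured members of 42 gene lists (left: high A minus high B as circles, minus high C as squares, minus both as red bars) and the percentage of members with an unadjusted p under 0.05 (right: higher in A to the right of 0, lower to the left), with dotted lines for all genes. Lymphocyte, macrophage and MHC lists have the largest shares higher in A, and cholesterol synthesis has the lowest median at -0.41, which turns to 0.04 without A mouse 2.

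Individual mice of A stood apart in several hepatocyte genes. Orm1, the acute phase protein orosomucoid 1, was at 13.25 in A mouse 1 but at 4.13 and 3.83 in A mice 2 and 4, while B and C ran from 12.47 to 13.74 and the low altitude mice from 11.64 to 13.57. Its mean difference of -5.84 ± 1.37 (SE, adjusted p = 0.149) therefore describes 2 mice and not the location. Genes that differ between the sexes also split A: the mean of 18 female-biased liver genes was 6.17 and 6.21 in A mice 1 and 2 and 8.52 in A mouse 4, all labelled male. High C mice 1 and 3, at 8.29 and 8.23, and low A mouse 1 and low B mouse 2, at 8.83 and 8.50, were also high, and the other 13 mice lay between 6.09 and 7.04. Cyp17a1, one of these genes, differed by -1.54 ± 0.46 (SE, adjusted p = 0.307), with 9.81, 9.96 and 12.05 in A. The mean of 21 male-biased genes was 8.27 in A mouse 4 and 8.24 and 8.61 in high C mice 1 and 3. It was 8.35 in low A mouse 1 and 8.47 in low B mouse 2, against 9.52 to 10.80 in the other 13 mice. The sex of the mice was taken from the labels and was not tested.

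Set against the mean of the low locations, high A had 312 probe sets higher (0.893%) and 56 lower (0.16%) at an adjusted p under 0.05. The same contrast gave 53 higher (0.152%) and 80 lower (0.229%) for high B and 49 higher (0.14%) and 31 lower (0.0887%) for high C, and the 3 contrasts share the low altitude arrays. With 1 probe set per gene, 1.13% of all genes were called higher in A than in the low locations. The calls included 13 of 44 lymphocyte signalling genes, 5 of 26 T cell genes, 7 of 25 NK genes, 7 of 27 macrophage genes and 6 of 11 class II genes. The class II median was 1.27 for A, 0.87 for B and 0.57 for C against the low locations, so all 3 high locations were on the same side, whereas the lymphocyte signalling median was 0.54 for A, 0.13 for B and 0.07 for C. No test of the difference between these medians was run. The 368 calls of this contrast fell to 82 without A mouse 1, 217 without A mouse 2, 196 without A mouse 4, and 221 and 225 without low A mice 2 and 3.

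Outside the lists, the highest value in A against the low locations belonged to Ubd, the ubiquitin-like protein FAT10 induced by interferon gamma and tumour necrosis factor, a gene chosen after its value was seen. Ubd was at 8.85, 9.67 and 7.35 in A, 5.22, 5.50 and 5.00 in B, and 4.55, 7.70 and 4.67 in C. It exceeded the low locations by 3.70 ± 0.65 (SE, adjusted p = 0.0125), and C mouse 2 overlapped A. Against B and C together its difference was 3.18 and was not called.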

How the data were processed

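Biotin-labelled liver RNA was hybridised to Affymetrix arrays, per the labels' protocols. The deposited log2 values are the authors' RMA values from the affy package, per the submitters' processing notes, which give no versions. RMA normalizes probes between arrays and compresses weak signals, and it does not correct for sequence differences between wild mice and the array's probes, which cannot be told apart from differences in RNA. Gene names came from GEO's platform annotation. Probe sets with several genes (932) or none named (9160) were not tested, and no genome build was used.

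limma 3.58.1 in R 4.3.3 fitted 6 location means over all 18 arrays (12 residual degrees of freedom), with eBayes and a mean-variance trend. Tests were two-sided, adjusted by Benjamini-Hochberg over 34945 probe sets at 0.05, with no filter on level. In lists a gene was read by its brightest probe set, and a defining or list level is the mean over members. The locations, the 42 gene lists and the members were chosen with earlier results of these data known. Text names the called genes that did not overlap (up to 14 a direction), the 5 markers and up to 4 members with the smallest p per list; defining markers of cell types are named too, and further genes were picked with their values in view. The fit was tested on simulated data. Mouse numbers did not pair mice across locations: deviations of same-numbered high altitude mice correlated between -0.29 and 0.22. Alternatives covered samples, block, probe sets, scaling, moderation, thresholds and leaving out each mouse. Figures used matplotlib 3.10.9 with Python 3.11.15 and pandas 2.3.3.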

Additional observations from a re-analysis of the deposited data

Results flagged for a closer look

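For 3 called probe sets, locations B and C differed from each other at an adjusted p under 0.05 with limma, so the differences of A from each are not alike. Sdc4 was lower in B than in C by a difference of -2.84 (adjusted p = 0.000315), 9230114K14Rik by -2.15 (adjusted p = 0.00066), and Cryaa was higher in B by 1.50 (adjusted p = 0.000616). Among the 6 mice of B and C, B mouse 1 stood apart from the others in 2 of 27 probe sets examined. Chance alone flags a mouse in about 1 of 20 such groups, so the number of flags is not read as a result. B mouse 1 was at 5.77 for Gzmk, with the others at 4.68 to 4.84, and at 4.26 for the dim probe set of Cxcr6, with the others at 3.27 to 3.61. Among probe sets with several genes or no gene name, which no comparison above uses, 8 were called between A and the rest, 5 higher and 3 lower, with the largest difference at -3.46 (adjusted p = 7.74e-05).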

How the results depend on the processing

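Between A and B and C, 26 probe sets were called. With the 9 high altitude arrays only, the count was 17, of which 11 were among the 26. With B and C pooled as 1 group in those arrays it was 10, of which 7 were among the 26. Neither Ccl5 nor Ptpn22 was called in that pooled setting. The count was 96 with arrays weighted by quality, 9 with the Actb covariate, 13 and 85 at adjusted p under 0.01 and 0.1, and 15 at 2-fold or more. Leaving out 1 mouse gave 10 to 48 calls, with 10 without A mouse 1, 45 without A mouse 4 and 48 without C mouse 2. The range was 13 to 75 for A minus B (66; 13 without A mouse 1, 17 without B mouse 3, 39 without B mouse 1), 10 to 32 for A minus C (21; 10 without A mouse 1, 12 without C mouse 3, 32 without A mouse 4), 11 to 47 for B minus C (32), 11 to 114 for B minus A and C (75), 6 to 17 for C minus A and B (11) and 82 to 474 for A minus low (368). With mouse number as a replicate block the counts were 19, of which 9 were among the 26, then 29 for A minus B, 36 for B minus A and C and 128 for A minus low. With 1 probe set per gene A minus B gave 43 and B minus A and C gave 48. The Actb difference of -0.31 ranged from -0.40 to -0.14 when 1 mouse was left out. No called probe set changed direction. List medians, recomputed under these settings after the data were seen, stayed within the spread between mice in 870 cases and moved further in 12; the cholesterol synthesis median of -0.41 was -1.12 with the block and -0.23 with the Actb covariate, and the clock median of -0.21 was -0.04 with that covariate. High B and high C against low were not refitted. Probe sets that passed under an alternative need not be the same ones, and the cause of the changes was not tested.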
